A study of Mus musculus with 12 samples.

Results

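Described here are 10 mouse genes, the inhibitors of cyclin-dependent kinases (Cdkn1a, Cdkn1b, Cdkn1c, Cdkn2a, Cdkn2b, Cdkn2c and Cdkn2d), the gene of p53 (Trp53), and the p53-linked genes Mdm2 and Phlda3. They were picked by name, as the genes of the deposited expression table whose Ensembl identifier carries one of these symbols, and they are 10 of 24432 genes. The study sequenced bulk RNA of 4 groups with 3 libraries each, 12 in all, and asked about kidney tumors that follow deletion of the Hippo pathway kinases Lats1 and Lats2. The allograft tumors grew from Lats1-/-;Lats2-/- cells of mixed background, injected beneath the renal capsule of NOD/scid hosts 6 to 8 weeks old and taken 6 weeks later. These hosts lack T and B cells but keep macrophages and other host cells. Lung metastases and primary kidney tumors came from mixed-background Slc34a1CreERT2;Lats1/2flox/flox mice, given 3 tamoxifen injections at 1 month of age and dissected 4 months on. Their Cre recombinase is driven by Slc34a1, a gene of proximal tubule cells, so Lats1 and Lats2 were to be lost there. The comparison cells were proximal tubule cells sorted by FACS from adult Slc34a1CreERT2;Lats1c/c;Lats2c/+;RosaTomato mice. They share the Cre and the conditional Lats1 alleles with the tumor mice. The labels call them wild type and leave unsaid if these alleles were recombined. They also leave unsaid if the 3 libraries of a group are 3 animals, and how many cell lines gave the allografts, so a p-value here reflects the spread among these libraries alone, which may be technical.

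Cell division is driven by cyclin-dependent kinases, and the CDK inhibitors hold them back. The INK4 proteins (p16, p15, p18 and p19, from Cdkn2a to Cdkn2d) block the kinases that cyclin D activates and so keep the retinoblastoma protein active, whereas the CIP/KIP proteins (p21, p27 and p57, from Cdkn1a to Cdkn1c) bind a wider range of cyclin and kinase complexes. Cdkn2a also encodes ARF (p19Arf in mouse) in another reading frame, which restrains Mdm2, the ubiquitin ligase that removes p53, and Cdkn1a, Mdm2 and Phlda3 are themselves induced by p53. In human renal cell carcinoma, loss of the chromosomal region that holds CDKN2A is a known event of advanced tumors.

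Levels are in FPKM, the sequenced fragments of a gene scaled by its length and by the total of the library, as the authors computed them. Changes are differences of log2(FPKM + 1) with their standard error, a scale that understates the changes of genes with low values. All 10 genes reached 1 FPKM in at least 3 of the 12 libraries and were among the 16313 genes tested. A gene is said to rise or fall where limma's test, with Benjamini-Hochberg adjustment over all 16313 genes of a comparison, gave an adjusted p under 0.05. The 3 comparisons with proximal tubule cells share the same 3 control libraries.

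The groups differed widely as a whole, and this bears on every value. Estimated depth was 11.3 to 18.3 M fragments (M, mega) in tumor libraries and 4.73 to 6.47 M in proximal tubule libraries. The median change of all genes against proximal tubule cells was 0.66 in allograft tumors, 0.68 in metastases and 0.59 in primary tumors on the log2 scale, and between tumor groups it lay between -0.02 and 0.03. Rescaling to TPM turned these medians against proximal tubule cells to -0.37, -0.18 and -0.29, so changes against them are given beside the median and beside 5 other scalings. Of 8 markers of proximal tubule, the summed level was 10.7 to 30.0 FPKM in allografts, 32.1 to 41.0 in metastases, 78.4, 3695 and 791 in primary tumors 1 to 3, and 4874 to 5756 in sorted cells. Primary tumors 2 and 3 thus stood apart from primary tumor 1. Libraries also differed in Xist, the transcript of the inactive X chromosome, and in the Y-linked gene Ddx3y. Xist measured 48.9 to 127 FPKM in allografts, 87.9 to 96.9 in metastases, 163, 0.323 and 0.374 in primary tumors 1 to 3, and 141 to 183 in proximal tubule cells. Ddx3y measured 8.94 to 22.8 FPKM in allografts, at most 0.259 in metastases, 0.112, 30.0 and 20.5 in primary tumors 1 to 3, and was listed at 0 in proximal tubule cells. The allografts thus held both transcripts, metastases, proximal tubule cells and primary tumor 1 mainly Xist, and primary tumors 2 and 3 mainly Ddx3y, and the part of sex in the results was not tested. Changes of single genes that rest on primary tumors are given with and without primary tumors 2 and 3. In the fit without them, primary tumor 1 alone is assumed to vary like the other groups. Lats1 measured 5.60 to 7.82 FPKM in allografts, 9.54 to 10.7 in metastases, 12.3 to 14.7 in primary tumors and 11.9 to 12.8 in sorted cells. Lats2 measured 12.2 to 17.1, 19.9 to 22.5, 13.0 to 21.4 and 10.5 to 11.0 FPKM in the same order, and values per gene do not resolve the deleted exons.

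The clearest pattern among the 10 genes was at the INK4/ARF locus on chromosome 4. Cdkn2a and Cdkn2b were both far higher in allograft tumors than in the other 3 groups, and in the 3 proximal tubule libraries Cdkn2a was listed at 0. Cdkn2a (chr4:89274471-89294653, minus strand, GRCm38) has 2 starts, an upstream one for ARF and a downstream one for p16Ink4a, and Cdkn2b lies next to it (chr4:89306299-89311039, minus strand). Values per gene cannot separate ARF from p16Ink4a. The 250 bases before each of the 3 starts are shown, because they are the stretches from which the transcripts that differ most among the groups begin. They are RefSeq sequences of GRCm38.p6, 5′ to 3′ on the minus strand, with each CG dinucleotide, the site of DNA methylation, in capitals.
Cdkn2a, upstream (ARF) start, chr4:89294620-89294869: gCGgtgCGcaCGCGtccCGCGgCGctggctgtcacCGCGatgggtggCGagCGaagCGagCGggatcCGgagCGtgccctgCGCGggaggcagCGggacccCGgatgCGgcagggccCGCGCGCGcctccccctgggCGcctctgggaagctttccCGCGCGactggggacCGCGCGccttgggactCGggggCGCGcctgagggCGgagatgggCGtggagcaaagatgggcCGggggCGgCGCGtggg
Cdkn2a, downstream (p16Ink4a) start, chr4:89282193-89282442: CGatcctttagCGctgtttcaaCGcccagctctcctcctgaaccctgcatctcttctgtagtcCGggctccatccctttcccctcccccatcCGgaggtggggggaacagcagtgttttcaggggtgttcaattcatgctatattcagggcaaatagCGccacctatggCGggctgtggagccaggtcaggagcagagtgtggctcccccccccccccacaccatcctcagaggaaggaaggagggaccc
Cdkn2b, chr4:89311033-89311282: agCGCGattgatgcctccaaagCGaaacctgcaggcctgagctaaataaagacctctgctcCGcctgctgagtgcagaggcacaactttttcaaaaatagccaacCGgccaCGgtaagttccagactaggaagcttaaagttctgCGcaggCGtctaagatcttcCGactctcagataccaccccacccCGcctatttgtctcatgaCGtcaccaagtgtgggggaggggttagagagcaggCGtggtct
The ARF window held 40 CG dinucleotides, a number reached by 1.31% of 32851 such windows of the mouse genome, whose median was 6. The p16Ink4a window held 7, which 46.3% of windows reach, and the Cdkn2b window held 12, which 33.5% reach. The letters GGGCGG, the GC box bound by Sp1-like factors, were searched on both strands. They occurred 2 times in the ARF window and in neither of the other windows, against at least once in 32.7% of all windows. The letters GGAATG, the core that TEAD factors recognise, were in none of the 3 windows on either strand, against 12.6% of all windows. These matches describe the letters only, and methylation was not measured.

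Cdkn2a measured 50.9, 24.2 and 54.1 FPKM in allograft tumors 1 to 3, 1.45, 0.913 and 1.02 in lung metastases, 0.898, 1.09 and 1.30 in primary tumors, and was listed at 0 in each proximal tubule library. The lowest allograft tumor thus lay far above every library of the other groups, while metastases and primary tumors overlapped. Cdkn2a was higher in allograft tumors than in lung metastases by 4.30 ± 0.27 on the log2 scale (43.1 ± 16.4 against 1.13 ± 0.285 FPKM, SD, n = 3 each, adjusted p = 3.2e-06). Against primary tumors it was higher by 4.32 ± 0.27 (primary tumors at 1.10 ± 0.199 FPKM, SD, n = 3, adjusted p = 1.31e-05). Both calls held in all 5 other scalings, which gave 3.66 to 4.51 against metastases and 3.69 to 4.51 against primary tumors, and in each fit without 1 library. Without primary tumors 2 and 3 the value against primary tumor 1 was 4.46 (adjusted p = 0.000371). Metastases and primary tumors differed by 0.02 (95% interval -0.57 to 0.60, adjusted p = 0.974).

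No fold is given for Cdkn2a against proximal tubule cells, since a value of 0 in such a table can be a failed estimate. It was called higher in allograft tumors (adjusted p = 4.71e-07), metastases (adjusted p = 0.00421) and primary tumors (adjusted p = 0.00694). A single fragment of Cdkn2a was worth about 0.0466 to 0.0758 FPKM in tumors and 0.132 to 0.18 in proximal tubule libraries, so levels near 1 FPKM rest on few fragments. Only the allograft call held in all 5 scalings. Quantile normalization ended the calls for metastases (adjusted p = 0.381) and primary tumors (adjusted p = 0.43), and so did a pseudocount of 5. Without primary tumors 2 and 3, the call for primary tumors was lost as well (adjusted p = 0.075).

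Cdkn2b, whose product p15 acts on the same kinases as p16, followed a graded order. It measured 40.0, 17.8 and 28.8 FPKM in allograft tumors, 10.6, 9.14 and 8.79 in metastases, 4.67, 2.97 and 8.42 in primary tumors, and 0.559, 0.666 and 0.359 in proximal tubule cells. None of the 4 groups overlapped with another. The step between the allograft tumors (28.9 ± 11.1 FPKM) and the metastases (9.50 ± 0.936) was 1.44 ± 0.33 on the log2 scale (adjusted p = 0.0104), and that between allografts and primary tumors (5.35 ± 2.79) was 2.25 ± 0.33 (adjusted p = 0.000686). The neighbouring groups in the order, metastases and primary tumors, did not differ past the threshold (0.81 ± 0.33, 95% interval 0.08 to 1.54, adjusted p = 0.104). Cdkn2b rose against proximal tubule cells (0.528 ± 0.156) by 4.22 ± 0.33 in allografts (adjusted p = 5.16e-06), by 2.78 ± 0.33 in metastases (adjusted p = 4.65e-05) and by 1.97 ± 0.33 in primary tumors (adjusted p = 0.000781). The allograft and metastasis calls held in all 5 scalings (3.13 to 3.88 and 1.67 to 2.58), and that of primary tumors in 4, with 0.75 (adjusted p = 0.095) under quantile normalization. Without primary tumors 2 and 3 the calls stood, with 2.33 for allografts against primary tumor 1 (adjusted p = 0.00409) and 1.90 for primary tumor 1 against proximal tubule cells (adjusted p = 0.00238). In bulk tissue, fewer cells of a type and less RNA per cell cannot be told apart, and this holds for each change given here.

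**Figure D1:**
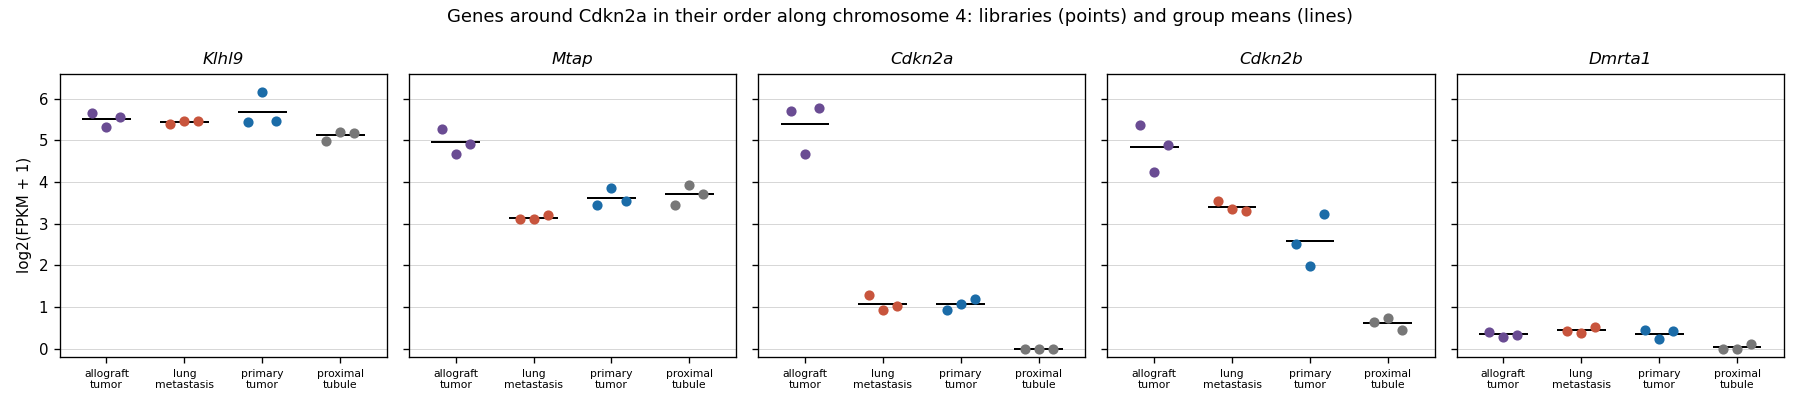
Levels of Cdkn2a, Cdkn2b and 3 nearby genes of chromosome 4 in each library, as log2(FPKM + 1), by group (points, single libraries, lines, group means). Cdkn2a stands at 24.2 to 54.1 FPKM in allograft tumors and at or below 1.45 FPKM in every other library, and Mtap is also highest in allografts, at 24.5 to 37.4 FPKM.

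Mtap, a methionine salvage enzyme whose gene (chr4:89137122-89181081, plus strand) lies beside Cdkn2a and is often lost together with it in human cancers, was higher in allograft tumors too. It measured 37.4, 24.5 and 29.3 FPKM there, 7.61, 7.66 and 8.18 in metastases, 9.83, 13.4 and 10.6 in primary tumors, and 9.96, 14.3 and 12.1 in proximal tubule cells. The allografts did not overlap with any other group, whereas primary tumors overlapped with proximal tubule cells. The change was 1.81 ± 0.19 against metastases (adjusted p = 0.000106) and 1.34 ± 0.19 against primary tumors (adjusted p = 0.000589), and both calls held in all 5 scalings. With primary tumor 1 alone the value was 1.51 (adjusted p = 0.00539). The change against proximal tubule cells was 1.25 ± 0.19 (adjusted p = 0.000192), and the sign turned to -0.10 after TPM rescaling. In metastases Mtap fell by 0.56 ± 0.19 against proximal tubule cells (adjusted p = 0.0229), in all 5 scalings too. Klhl9, farther away on the same chromosome, measured 39.1 to 49.8 FPKM in allografts, 40.6 to 43.4 in metastases, 42.4 to 70.4 in primary tumors and 30.4 to 36.0 in proximal tubule cells, so that the 3 tumor groups overlapped. Another far neighbour, Focad, named here after its values were seen, measured 6.68 to 9.0 FPKM in allografts, 4.98 to 5.78 in metastases, 5.68 to 6.41 in primary tumors and 3.08 to 3.50 in proximal tubule cells, with every allograft above every other library on the deposited scale. Dmrta1 was at most 0.430 FPKM in any of the 12 libraries and was not tested.

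Of 10 neighbours and known repressors of the locus, 9 were tested, and against metastases 3 were higher and 2 lower in allograft tumors, where 10.4% of all genes were called higher and 13.3% lower. The median of the 9 was 0.35, beside 0.03 for all genes. The 2 that fell were Tbx2, a T-box repressor of ARF, and Id1, an inhibitor of the factors that activate p16. Tbx2 measured 0.464, 2.00 and 0.931 FPKM in allografts, 10.2, 14.3 and 18.4 in metastases, 5.86, 14.9 and 15.8 in primary tumors, and 21.8, 27.8 and 19.9 in proximal tubule cells. It was thus lowest in the group where Cdkn2a was highest, with no overlap with any other group. Its change was -2.87 ± 0.38 against metastases (adjusted p = 0.000443), -2.59 against primary tumors (adjusted p = 0.000677) and -3.55 against proximal tubule cells (adjusted p = 2.12e-05), in all 5 scalings, and -1.75 against primary tumor 1 alone (adjusted p = 0.0208). Id1 fell by 2.41 ± 0.29 against metastases (adjusted p = 0.000229), and its 5.65 to 11.2 FPKM in allografts compare with 41.2 to 47.3 in metastases. The Polycomb genes, which silence the locus in dividing cells, did not move in 1 direction: Ezh2 was higher in allografts than in primary tumors by 1.66 (30.1 against 8.49 FPKM, adjusted p = 0.0112) and Suz12 by 0.97 (adjusted p = 0.00131), and Cbx7 was lower by 1.35 (adjusted p = 0.00111). Against primary tumor 1 alone the Ezh2 call was lost (0.83, adjusted p = 0.305), whereas Suz12 (1.01, adjusted p = 0.0163) and Cbx7 (-0.85, adjusted p = 0.026) kept theirs. Whether any of these levels bears on Cdkn2a or Cdkn2b was not tested.

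Cdkn2c and Cdkn2d, the INK4 members outside the locus, varied less. Cdkn2c (chr4:109660876-109667189, minus strand) encodes p18, and it measured 38.9, 27.9 and 24.1 FPKM in allografts, 16.9, 19.3 and 19.9 in metastases, 13.9, 20.0 and 7.51 in primary tumors, and 7.64, 10.2 and 6.31 in proximal tubule cells. Every allograft tumor was above every other library, and the primary tumors overlapped with metastases and with proximal tubule cells. It rose against proximal tubule cells by 1.79 ± 0.31 in allografts (30.3 ± 7.67 against 8.04 ± 1.96 FPKM, adjusted p = 0.000446, held in 4 of 5 scalings) and by 1.14 ± 0.31 in metastases (adjusted p = 0.00721, 1 of 5 scalings). In primary tumors the difference was 0.64 ± 0.31 (95% interval -0.05 to 1.32, adjusted p = 0.104), and its sign turned under TPM rescaling, quantile normalization and array weights. Allografts were higher than primary tumors by 1.15 ± 0.31 (adjusted p = 0.0136) in all 5 scalings, though not without allograft tumor 1 (0.96, adjusted p = 0.054), and without primary tumors 2 and 3 the value was 1.04 (adjusted p = 0.0396). Allografts and metastases did not differ past the threshold (0.64, 95% interval -0.04 to 1.33, adjusted p = 0.161).

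Cdkn2d (chr9:21288410-21291407, minus strand), which encodes p19Ink4d, had its highest level in the metastases, unlike the other INK4 genes. It measured 10.2, 8.59 and 10.1 FPKM in allografts, 11.8, 13.5 and 12.2 in metastases, 7.55, 5.65 and 5.12 in primary tumors, and 2.21, 3.05 and 3.72 in proximal tubule cells. No group overlapped with another, but allografts and metastases did not differ past the threshold (-0.34, 95% interval -0.75 to 0.06, adjusted p = 0.21). It rose against proximal tubule cells by 1.43 ± 0.18 in allografts (adjusted p = 6.76e-05), 1.77 ± 0.18 in metastases (adjusted p = 2.18e-05) and 0.83 ± 0.18 in primary tumors (adjusted p = 0.00376). Of these, the metastasis call held in all 5 scalings (0.86 to 1.42) and the allograft call in 4, while the primary tumor call was lost in all 5, which gave -0.15 to 0.54, and stood without primary tumors 2 and 3 (1.11, adjusted p = 0.0035). Metastases were higher than primary tumors by 0.94 ± 0.18 (adjusted p = 0.00662, all 5 scalings), and by 0.65 (adjusted p = 0.172) without primary tumors 2 and 3. Allografts were higher than primary tumors by 0.59 ± 0.18 (adjusted p = 0.026), a call held in 3 of 5 scalings and lost without primary tumors 2 and 3 (0.31, adjusted p = 0.385). It was also lost without primary tumor 2 (adjusted p = 0.0626), primary tumor 3 (adjusted p = 0.0934), allograft tumor 1 (adjusted p = 0.0693) or allograft tumor 3 (adjusted p = 0.0574).

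**Figure D2:**
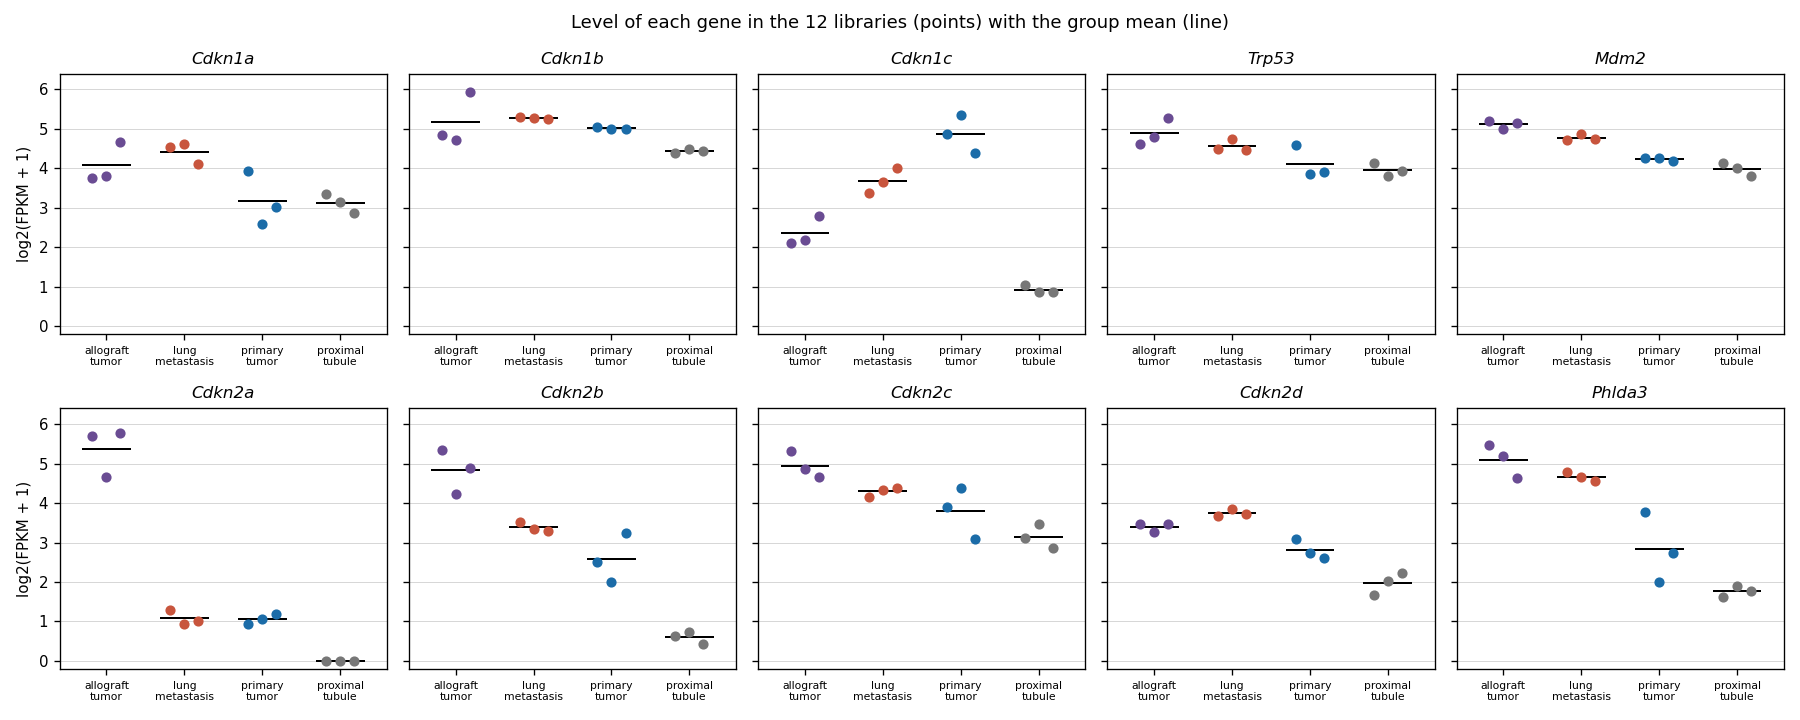
Levels of the 10 genes in each library, as log2(FPKM + 1), by group (points, single libraries, lines, group means). Cdkn2a and Cdkn2b are highest in allograft tumors, and Cdkn1c in primary tumors, at 19.8 to 40.0 FPKM. For Cdkn1b the libraries of each group lie close together apart from allograft tumor 3, at 60.2 FPKM.

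Among the CIP/KIP genes, Cdkn1c stood out, with its highest level in primary tumors and its lowest tumor level in allografts. Cdkn1c (chr7:143458339-143461050, minus strand) encodes p57, an imprinted gene that is also known from differentiated podocytes of the glomerulus. It measured 3.29, 3.56 and 5.95 FPKM in allograft tumors, 9.30, 11.6 and 15.2 in metastases, 28.4, 40.0 and 19.8 in primary tumors, and 1.05, 0.829 and 0.832 in proximal tubule cells. No group overlapped with another. Against proximal tubule cells (0.903 ± 0.127 FPKM) it rose by 1.44 ± 0.28 in allografts (adjusted p = 0.00091), 2.75 ± 0.28 in metastases (adjusted p = 1.76e-05) and 3.95 ± 0.28 in primary tumors (29.4 ± 10.1 FPKM, adjusted p = 6.55e-06). All 5 scalings held the calls of metastases (1.69 to 2.50) and primary tumors (2.93 to 3.75), and 3 of 5 that of allografts (0.40 to 1.06).

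Allograft tumors had less Cdkn1c than primary tumors, by -2.51 ± 0.28 on the log2 scale (adjusted p = 0.000184), and less than metastases, by -1.31 ± 0.28 (adjusted p = 0.00678). Metastases had less than primary tumors, by -1.20 ± 0.28 (adjusted p = 0.0145). These 3 calls held in all 5 scalings, but the last was lost without metastasis 1 (-1.04, adjusted p = 0.0589), without metastasis 2 (-1.18, adjusted p = 0.0536) and without primary tumors 2 and 3 (-1.20, adjusted p = 0.0651). With primary tumor 1 alone, the other primary tumor calls stood, at 3.95 against proximal tubule cells (adjusted p = 2.62e-05) and -2.51 for allografts (adjusted p = 0.00174). A list of 6 podocyte genes, added after the values of Cdkn1c had been seen, summed to 23.5, 40.2 and 30.8 FPKM in allografts, 46.2, 47.2 and 47.4 in metastases, 70.0, 112 and 86.3 in primary tumors, and 23.6, 17.3 and 15.5 in proximal tubule cells, with 1 gene at 0 in proximal tubule library 2. Primary tumor 2 was highest and primary tumor 3 lowest for Cdkn1c among primary tumors, whereas primary tumor 1 was lowest for the podocyte sum. Podocyte transcripts thus moved with Cdkn1c between primary tumors and the other groups, and their part in it was not tested. An antisense gene, Gm44732, overlaps exons of Cdkn1c and has no values here, and without a stated strandedness its reads cannot be told apart from those of Cdkn1c.

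Cdkn1a (chr17:29090976-29100727, plus strand), the p21 gene and the best known p53 target, changed modestly. The 250 bases before its upstream start are shown because they hold a full p53 response element, on the plus strand of GRCm38.p6 from RefSeq, with the element in capitals.
Cdkn1a, upstream start, chr17:29090729-29090978: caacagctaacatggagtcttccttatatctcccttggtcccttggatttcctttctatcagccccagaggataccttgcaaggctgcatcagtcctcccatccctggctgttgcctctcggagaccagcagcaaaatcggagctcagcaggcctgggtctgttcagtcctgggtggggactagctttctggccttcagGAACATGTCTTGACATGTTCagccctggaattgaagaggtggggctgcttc
The element, made of 2 p53 half-sites that adjoin with at most 1 base off, was found in 0.0761% of the 32851 windows (25 in all), and among the 12 windows of 9 member genes it was in this one. Single half-sites occurred in 7.1% of all windows, and also before Cdkn2d, Trp53 and Mdm2. Cdkn1c had no window in the table.

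Cdkn1a measured 12.5, 12.9 and 24.3 FPKM in allograft tumors, 22.5, 23.3 and 16.1 in metastases, 14.3, 5.02 and 7.14 in primary tumors, and 9.15, 7.87 and 6.32 in proximal tubule cells. Primary tumors spanned the whole range of the proximal tubule cells, and allografts overlapped with metastases and with primary tumors. It rose against proximal tubule cells by 1.30 ± 0.35 in metastases (20.6 ± 3.93 against 7.78 ± 1.42 FPKM, adjusted p = 0.00708) and by 0.95 ± 0.35 in allografts (adjusted p = 0.0317). Both calls were lost in all 5 scalings, which gave 0.31 to 0.89 in metastases and -0.34 to 0.38 in allografts. In primary tumors the difference was 0.06 (95% interval -0.71 to 0.84, adjusted p = 0.894), with a negative sign in all 5 scalings, and with primary tumor 1 alone it was 0.81 (adjusted p = 0.0937). The allograft call also rested on allograft tumor 3 (without it 0.66, adjusted p = 0.121), on proximal tubule libraries 2 (adjusted p = 0.0654) and 3 (adjusted p = 0.0988). The 10 immediate early and dissociation genes, such as Fos and Egr1, summed to 190.5 to 377 FPKM in allografts, 264.7 to 578 in metastases, 105 to 219 in primary tumors and 677 to 1505 in the sorted proximal tubule cells, and their part in the Cdkn1a values was not tested. Metastases were higher than primary tumors by 1.24 ± 0.35 (adjusted p = 0.0329), held in 3 of 5 scalings and lost without any 1 metastasis, without primary tumor 2 (0.94, adjusted p = 0.108) or 3 (adjusted p = 0.106), and without both (0.48, adjusted p = 0.686). The annotated gene AC167363.2 overlaps exons of Cdkn1a on the other strand and has no values here.

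Cdkn1b (chr6:134920401-134925513, plus strand) encodes p27, which is controlled mainly through protein turnover. It measured 27.5, 25.2 and 60.2 FPKM in allografts, 38.6, 37.5 and 37.0 in metastases, 32.0, 30.9 and 30.8 in primary tumors, and 20.0, 21.5 and 20.5 in proximal tubule cells. Within each of the other groups the 3 libraries lay close together, whereas allograft tumor 3 was well above the other allografts. It rose by 0.84 ± 0.26 in metastases (adjusted p = 0.0157) and by 0.72 ± 0.26 in allografts (adjusted p = 0.0302), and in primary tumors the difference was 0.57 ± 0.26 (adjusted p = 0.0888), close to the median of all genes. Both calls were lost in all 5 scalings, whose values ran from -0.64 to 0.24 in allografts and from -0.19 to 0.47 in metastases. The allograft call was also lost without any 1 of the proximal tubule libraries (adjusted p = 0.0585 to 0.0724). No comparison between tumor groups passed for Cdkn1b, and their intervals reached at most 0.85 in size upward and -0.70 downward. Much of this rested on allograft tumor 3. Without it the allograft rise against proximal tubule cells was 0.34 (adjusted p = 0.0255), the primary tumor difference of 0.57 passed (adjusted p = 0.00149), and allografts were lower than metastases by -0.50 (adjusted p = 0.0142).

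Against proximal tubule cells, the genes of p27 turnover were called about as often as all genes. Of all genes, 52.2%, 54% and 48.2% were higher there and 16.9%, 14.4% and 4.9% lower, in allografts, metastases and primary tumors. Of 8 turnover genes tested, 5 were higher and 2 lower in allografts against proximal tubule cells (median 0.90, all genes 0.66), 5 higher and 2 lower in metastases (median 0.59, all genes 0.68), and 3 higher and 1 lower in primary tumors (median 0.44, all genes 0.59). Between tumors, 4 of the 8 were higher in allografts than in primary tumors (median 0.45, all genes -0.02), beside 20.5% of all genes. Against primary tumor 1 alone that median was 0.46. In allografts against metastases 2 were higher (median 0.41, all genes 0.03), beside 10.4% of all genes. In metastases against primary tumors 1 was higher (median 0.10, all genes 0.01), beside 11.3%. No turnover gene was called lower between tumors. Skp2, which targets p27 for breakdown, averaged 10.6 FPKM in allografts, 5.94 in metastases, 3.46 in primary tumors and 1.72 in proximal tubule cells. It rose by 2.07 in allografts (adjusted p = 6e-05, all 5 scalings) and was higher there than in primary tumors by 1.42 (adjusted p = 0.00218, all 5 scalings), but not past the threshold than in primary tumor 1 alone (0.83, adjusted p = 0.0607). Its cofactor Cks1b rose by 4.41 in allografts (adjusted p = 2.66e-05) and 3.30 in metastases (adjusted p = 0.000183). Foxo1, a factor that activates Cdkn1b, fell by 1.54 in allografts, 1.47 in metastases and 1.12 in primary tumors (adjusted p = 0.000195, 0.000299 and 0.00279), in all 5 scalings, with -1.51 in primary tumor 1 alone (adjusted p = 0.00222).

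Trp53 itself, the gene of p53, was detected in every library and varied less than most of the inhibitors. Trp53 (chr11:69580359-69591873, plus strand) measured 23.4, 26.6 and 37.7 FPKM in allografts, 21.5, 25.7 and 21.2 in metastases, 22.9, 13.5 and 14.0 in primary tumors, and 16.5, 12.9 and 14.4 in proximal tubule cells. Primary tumor 1 lay among the other tumors and primary tumors 2 and 3 among the proximal tubule cells. It rose against proximal tubule cells by 0.93 ± 0.23 in allografts (29.2 ± 7.52 against 14.6 ± 1.83 FPKM, adjusted p = 0.00426) and 0.61 ± 0.23 in metastases (adjusted p = 0.0355). Both calls were lost in all 5 scalings, the allograft values running from -0.42 to 0.42, and the metastasis call was also lost without any 1 metastasis or without proximal tubule library 2 or 3 (adjusted p = 0.059 to 0.113). In primary tumors the difference was 0.16 (95% interval -0.35 to 0.67, adjusted p = 0.575), negative in all 5 scalings, and with primary tumor 1 alone it was 0.63 (adjusted p = 0.0713). Allografts were higher than primary tumors by 0.77 ± 0.23 (adjusted p = 0.0217), but by 0.31 without primary tumors 2 and 3 (adjusted p = 0.456). The call was also lost without primary tumor 2 (adjusted p = 0.0673), primary tumor 3 (adjusted p = 0.0779) or allograft tumor 3 (adjusted p = 0.0678).

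Mdm2 (chr10:117688875-117710758, minus strand), the ligase that removes p53 and is in turn induced by it, had little spread within groups. It measured 36.0, 31.1 and 34.5 FPKM in allografts, 25.5, 28.0 and 25.7 in metastases, 18.3, 18.1 and 17.3 in primary tumors, and 16.4, 15.2 and 13.0 in proximal tubule cells. No group overlapped with another. It rose against proximal tubule cells by 1.14 ± 0.13 in allografts (adjusted p = 2.85e-05) and 0.80 ± 0.13 in metastases (adjusted p = 0.000316), with 0.26 ± 0.13 in primary tumors (adjusted p = 0.107). The allograft call held in 4 of 5 scalings and the metastasis call in 1, TPM rescaling turned both signs to -0.22, and all 5 scalings turned that of primary tumors. Between tumors, allografts were higher than primary tumors by 0.88 ± 0.13 (33.9 ± 2.49 against 17.9 ± 0.513 FPKM, adjusted p = 0.000677, 4 of 5 scalings, 0.56 to 0.87), and higher than primary tumor 1 alone by 0.85 (adjusted p = 0.0116). Metastases were higher than primary tumors by 0.53 ± 0.13 (adjusted p = 0.0171, 3 of 5 scalings), a call lost without primary tumors 2 and 3 (adjusted p = 0.16), and also without primary tumor 3 (adjusted p = 0.0554), metastasis 2 (adjusted p = 0.0809) or metastasis 3 (adjusted p = 0.0568). Allografts and metastases differed by 0.34 (95% interval 0.06 to 0.63, adjusted p = 0.0778).

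Phlda3 (chr1:135766119-135769136, plus strand), a p53 target whose product restrains the kinase AKT, changed most among the p53-linked members. It measured 43.2, 35.6 and 24.1 FPKM in allografts, 26.6, 24.5 and 22.4 in metastases, 12.7, 3.00 and 5.72 in primary tumors, and 2.08, 2.76 and 2.41 in proximal tubule cells. Allografts and metastases overlapped with each other and lay above every primary tumor, and primary tumor 2 was close to proximal tubule cells. It rose against proximal tubule cells by 3.33 ± 0.37 in allografts (34.3 ± 9.64 against 2.41 ± 0.338 FPKM, adjusted p = 2.81e-05) and 2.90 ± 0.37 in metastases (24.5 ± 2.08 FPKM, adjusted p = 7.72e-05), in all 5 scalings. Primary tumors were higher by 1.07 ± 0.37 (adjusted p = 0.0332), a call lost in all 5 scalings (0.07 to 0.81), without primary tumor 1 (0.61, adjusted p = 0.0895) or 3 (adjusted p = 0.0578), and without any 1 proximal tubule library (adjusted p = 0.0594 to 0.089). With primary tumor 1 alone the value was 2.01 (adjusted p = 0.000522).

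Between tumor groups, Phlda3 was higher in allografts than in primary tumors by 2.26 ± 0.37 (adjusted p = 0.00123) and in metastases than in primary tumors by 1.83 ± 0.37 (adjusted p = 0.00788), both in all 5 scalings. Without primary tumors 2 and 3, the allograft value was 1.33 (adjusted p = 0.0145) and the metastasis value 0.90 (adjusted p = 0.131). Allografts and metastases did not differ past the threshold (0.43, 95% interval -0.40 to 1.26, adjusted p = 0.454). The lower values of primary tumors 2 and 3 went with their higher proximal tubule sums of 3695 and 791 FPKM, against 78.4 in primary tumor 1, and the part of tubule RNA in them was not tested.

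**Figure D3:**
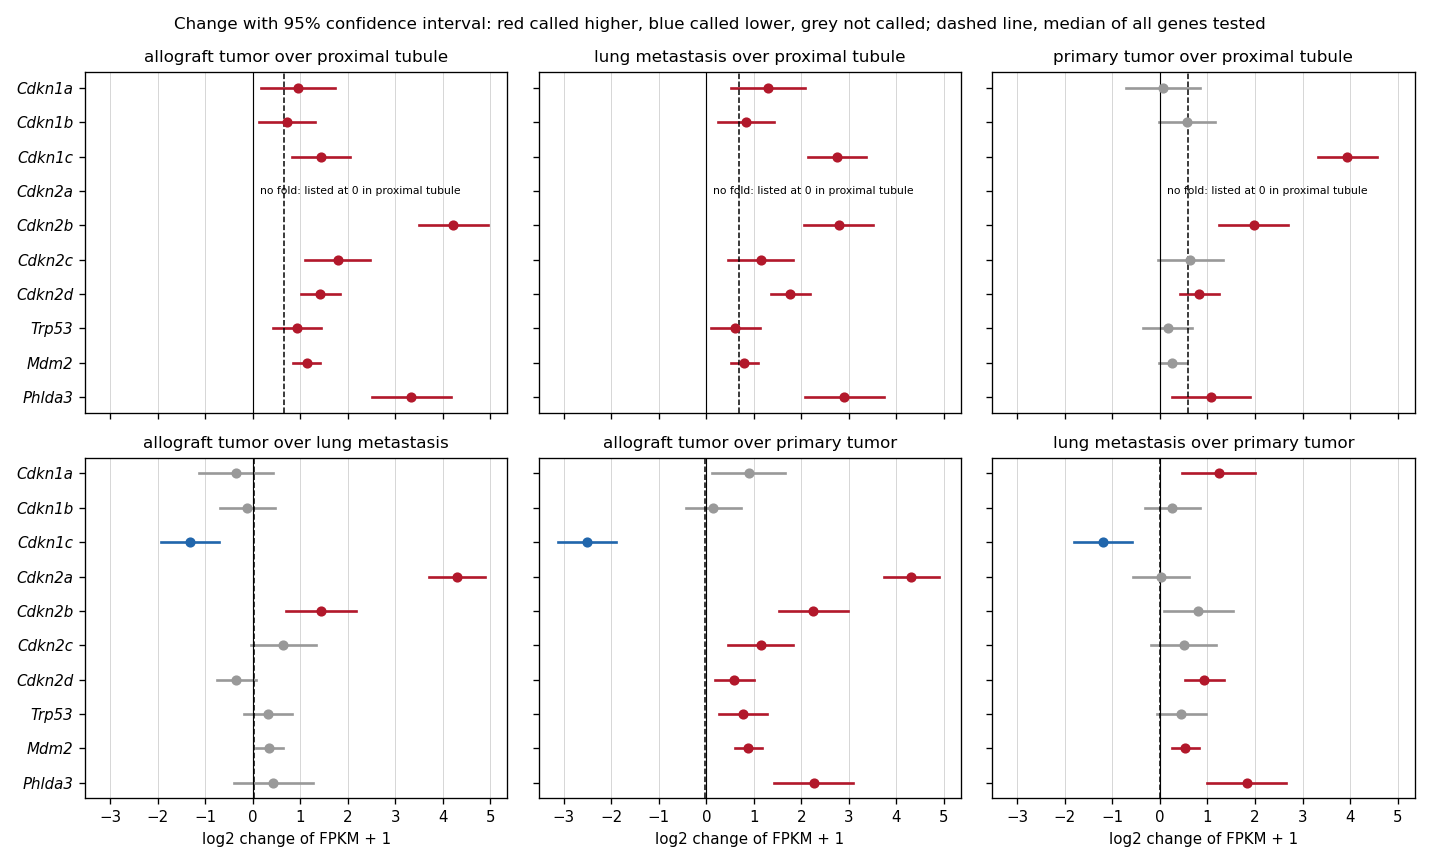
Change of each of the 10 genes in the 6 comparisons, as a difference of log2(FPKM + 1) with its 95% interval. Red points were called higher and blue points lower at an adjusted p of 0.05, grey points were not called, the dashed line is the median of all 16313 genes, and Cdkn2a is left out against proximal tubule cells, where it was listed at 0. Cdkn1c is called lower in each of the 3 comparisons between tumor groups, from -2.51 to -1.20, and no other gene of the 10 is called lower there.

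Known p53 targets moved in both directions. The list held 26 known targets without the 10 genes described above, all 26 tested. Against proximal tubule cells, 13 were higher and 5 lower in allografts (median 0.56, all genes 0.66), 12 higher and 4 lower in metastases (median 0.57, all genes 0.68), and 10 higher and 1 lower in primary tumors (median 0.28, all genes 0.59). The higher calls were thus 13, 12 and 10 of 26, where 52.2%, 54% and 48.2% of all genes were called higher, and the lower calls stood beside 16.9%, 14.4% and 4.9%. TPM rescaling turned these counts to 4 higher and 12 lower, 5 and 11, and 1 and 11, and the medians to below 0. The medians of all genes moved to -0.37, -0.18 and -0.29 with it, and more of all genes were then called lower than higher. Against primary tumors, 7 were higher and 6 lower in allografts (median 0.09, all genes -0.02), where 20.5% of all genes were called higher and 21.1% lower. In metastases 4 were higher and 1 lower (median 0.23, all genes 0.01), where 11.3% were called higher and 9.59% lower. With primary tumor 1 alone limma called 2 higher and 1 lower in allografts (3271 of all genes) and 0 in metastases (1155 of all genes). Between allografts and metastases, 0 were higher and 2 lower (10.4% and 13.3% of all genes), Fas, a death receptor (-1.45, adjusted p = 0.00439), and Btg2, which restrains proliferation (-1.42, adjusted p = 0.0102).

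Some targets had the same order of group means as Phlda3. Plk2, a kinase induced by stress, averaged 158 ± 93.2 FPKM in allografts, 85.1 ± 13.5 in metastases, 16.7 ± 13.6 in primary tumors and 6.90 ± 1.92 in proximal tubule cells. It was higher than in primary tumors by 3.28 in allografts (adjusted p = 0.000848) and 2.54 in metastases (adjusted p = 0.00682), in all 5 scalings. Primary tumor 1 stood at 32.3 FPKM and primary tumors 2 and 3 at 7.53 and 10.2. Against primary tumor 1 alone the Plk2 change was 2.10 in allografts (adjusted p = 0.024) and 1.36 in metastases (adjusted p = 0.216). Bax, a driver of apoptosis, averaged 67.3, 57.6, 32.6 and 18.8 FPKM in the same order of groups, and was higher than in primary tumors by 1.05 in allografts (adjusted p = 0.00396) and 0.83 in metastases (adjusted p = 0.0251), in all 5 scalings. Both Bax calls were lost against primary tumor 1 alone (0.63, adjusted p = 0.0828, and 0.41, adjusted p = 0.468). Sesn2, a stress-induced inhibitor of growth signalling, fell against proximal tubule cells by 1.73 in allografts, 1.69 in metastases and 1.21 in primary tumors (adjusted p = 0.000266, 0.000356 and 0.00452), with -1.70 in primary tumor 1 alone (adjusted p = 0.00315), and Ccng1 passed in none of the 6 comparisons.

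Among 12 regulators of p53, 10 were tested. Against proximal tubule cells, 8 were higher and 1 lower in allografts (median 0.73), 8 higher and 1 lower in metastases (median 0.67), and 5 higher and 0 lower in primary tumors (median 0.63), with medians close to those of all genes and beside 52.2%, 54% and 48.2% of all genes called higher. Mdm4, the partner of Mdm2, averaged 18.4 FPKM in allografts, 22.3 in metastases, 24.8 in primary tumors and 13.0 in proximal tubule cells. It was thus highest in primary tumors, where Mdm2 was lowest among tumors, and it was lower in allografts than in primary tumors by 0.42 (adjusted p = 0.0431), in 1 of 5 scalings and not against primary tumor 1 alone (-0.52, adjusted p = 0.0873). Its rises against proximal tubule cells (0.47, 0.74 and 0.88, and 0.99 in primary tumor 1 alone) were lost in all 5 scalings. Chek1, a checkpoint kinase, was higher in allografts than in primary tumors by 1.98 (adjusted p = 0.0014) and than in primary tumor 1 alone by 1.12 (adjusted p = 0.0332), and Hipk2, a kinase that activates p53, fell against proximal tubule cells by 1.28 in allografts (adjusted p = 0.00118) and 1.43 in metastases (adjusted p = 0.000643).

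Counted together, 10 of the 10 genes rose in allografts against proximal tubule cells, where 52.2% of all genes were called higher and 16.9% lower. All 10 rose in metastases too, where 54% of genes were called higher and 14.4% lower, and 5 rose in primary tumors, where 48.2% were called higher and 4.9% lower. The groups did not overlap for 10, 10 and 7 of the genes, beside 75.6%, 83.5% and 62.3% of all genes. The median change of the 10 genes, Cdkn2a at its fitted value, was 1.43, 1.22 and 0.74 in allografts, metastases and primary tumors, beside 0.66, 0.68 and 0.59. Most of these rises did not outlast a change of scaling: the calls held in all 5 scalings were Cdkn2a, Cdkn2b and Phlda3 in allografts, Cdkn1c, Cdkn2b, Cdkn2d and Phlda3 in metastases, and Cdkn1c in primary tumors.

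More of the calls between tumor groups held under other scalings. In allografts against primary tumors 7 genes were higher and 1, Cdkn1c, lower, where 20.5% of all genes were called higher and 21.1% lower, and 8 did not overlap, beside 43.7% of all genes. The median of the 10 was 0.88, beside -0.02 for all genes, and Cdkn2a, Cdkn2b, Cdkn2c, Phlda3 and Cdkn1c held their calls in all 5 scalings. In metastases against primary tumors 4 were higher (Cdkn1a, Cdkn2d, Mdm2 and Phlda3) and Cdkn1c lower, where 11.3% of all genes were called higher and 9.59% lower, and 7 did not overlap, beside 42% of all genes, with a median of 0.52 beside 0.01. Of these 5 calls, 3 held in all 5 scalings (Cdkn2d, Phlda3 and Cdkn1c), and none remained when primary tumors 2 and 3 were left out, where limma called 1155 of all genes in place of 3414. In allografts against metastases Cdkn2a and Cdkn2b were higher and Cdkn1c lower, where 10.4% of all genes were called higher and 13.3% lower, and 6 did not overlap, beside 48.5% of all genes, with a median of 0.33 beside 0.03. These 3 calls held in all 5 scalings and in each fit without 1 library of the 2 groups.

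**Figure D4:**
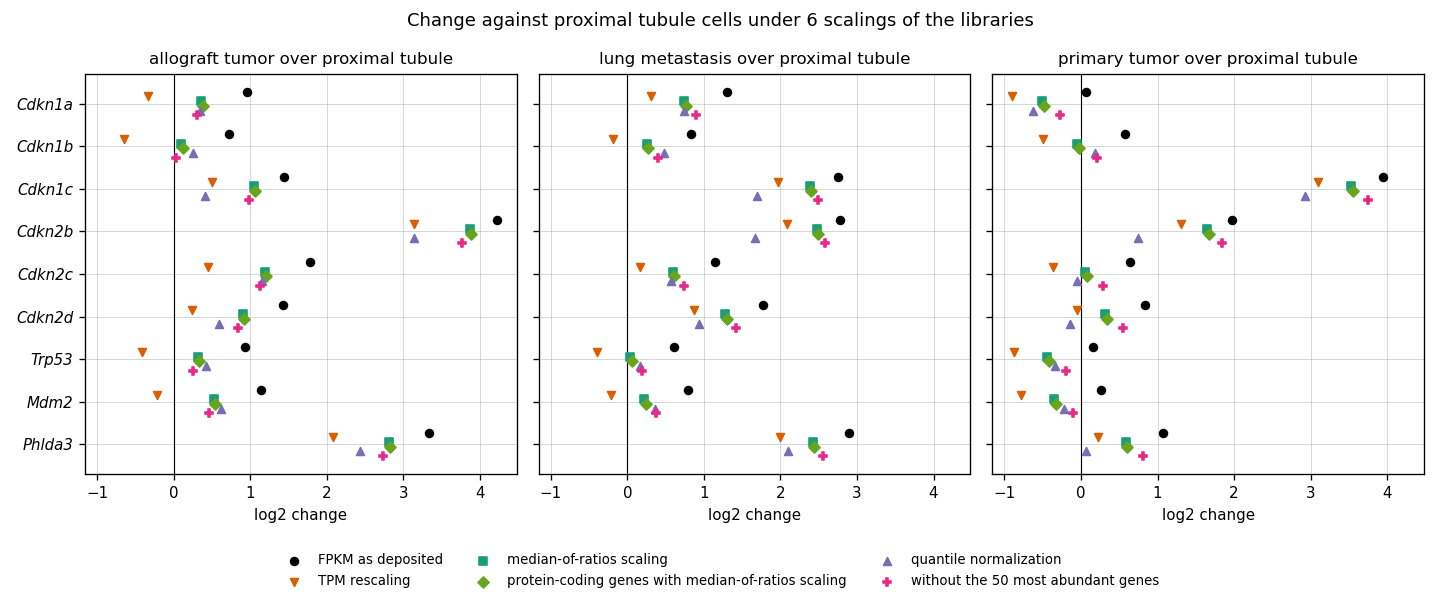
Change of 9 genes (Cdkn2a is left out) against proximal tubule cells under the values as deposited (circles) and 5 other scalings, as a difference of log2(value + 1), with allograft tumors, metastases and primary tumors in the panels from left to right. The other scalings lie below the deposited values for every gene shown, and TPM rescaling puts Trp53, Mdm2 and Cdkn1b below 0 in all 3 panels.

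Among the 12 kinases and cyclins on which the inhibitors act, 9 had the same order of group means as Cdkn2b and Cdkn2c, highest in allografts, then metastases, primary tumors and proximal tubule cells, and the 3 D cyclins did not. Cdk4, a main target of the INK4 proteins, averaged 261 FPKM in allografts, 117 in metastases, 63.7 in primary tumors and 33.3 in proximal tubule cells. It was higher in allografts than in metastases by 1.09 (adjusted p = 0.0385, 2 of 5 scalings) and than in primary tumors by 2.07 (adjusted p = 0.00111, all 5 scalings), and than in primary tumor 1 alone by 1.33 (adjusted p = 0.0235). Cdk6, its close relative, rose against proximal tubule cells by 2.02 in allografts, 1.97 in metastases and 1.27 in primary tumors (adjusted p = 0.000202, 0.000262 and 0.00602), the last lost in all 5 scalings and at 2.09 in primary tumor 1 alone (adjusted p = 0.000236). Ccnd1, the cyclin D1 gene, averaged 34.5, 77.3, 88.0 and 53.9 FPKM in the same order of groups, with a change of -1.18 for allografts against primary tumors (adjusted p = 0.036). That call rested on primary tumors 2 and 3, at 145 and 77.8 FPKM: primary tumor 1, at 41.4, lay within the allograft range of 28.9 to 45.6, and against it alone the change was -0.29 (adjusted p = 0.619). Ccnd2 was lower in allografts than in metastases by 1.68 (adjusted p = 0.00781, all 5 scalings). Rb1, the retinoblastoma gene through which INK4 proteins act, passed in none of the 6 comparisons, and E2f1, a factor it restrains, averaged 11.4, 4.72, 2.27 and 0.599 FPKM, higher in allografts than in primary tumors by 1.94 (adjusted p = 0.000704) and than in primary tumor 1 alone by 1.34 (adjusted p = 0.0219).

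The counts of these lists stand beside 52.2%, 54% and 48.2% of all genes called higher in allografts, metastases and primary tumors against proximal tubule cells, with medians of 0.66, 0.68 and 0.59. As lists, 10 of 12 cyclins and CDKs were higher and 1 lower in allografts against proximal tubule cells (median 2.91), 10 higher in metastases (median 2.20) and 4 higher in primary tumors (median 1.12). With primary tumor 1 alone the median of the cyclins and CDKs was 2.04, beside 0.60 for all genes. Of 12 RB and E2F genes, 10, 8 and 6 were higher and 1, 1 and 0 lower (medians 1.21, 1.17 and 0.74), so that in primary tumors the shares called in both lists were about that of all genes or below it. All 12 proliferation markers were higher in allografts and in metastases (medians 4.06 and 3.13), in each of the 5 scalings as well, and 8 in primary tumors (median 1.38, 0 to 7 under other scalings). The shares of all genes called under those scalings are not given beside these counts. With primary tumor 1 alone the median of the proliferation markers was 2.67. Mki67, the Ki-67 gene, averaged 50.3 FPKM in allografts, 34.9 in metastases, 12.9 in primary tumors and 1.92 in proximal tubule cells. The summed level of the 12 was 647 to 1147 FPKM in allografts, 373 to 419 in metastases, 283, 82.5 and 74.6 in primary tumors 1 to 3, and 43.2 to 46.4 in proximal tubule cells. Allograft tumors had both the highest Cdkn2a and Cdkn2b levels and the highest summed proliferation level. Among primary tumors, primary tumor 1 was highest for proliferation and for Cdkn1a, Cdkn2d, Trp53 and Phlda3, and by little for Cdkn1b and Mdm2. It was lowest of its group for Cdkn2a (0.898 against 1.09 and 1.30 FPKM), and not the highest for Cdkn2b, Cdkn2c or Cdkn1c.

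Markers of other cell types moved with the groups as well. Fibroblast markers (7 genes) summed to 942 to 2372 FPKM in allografts, 427 to 537 in metastases, 160 to 936 in primary tumors and 2.62 to 4.93 in proximal tubule cells. All 7 were higher in each tumor group than in proximal tubule cells, beside 52.2%, 54% and 48.2% of all genes in allografts, metastases and primary tumors. Macrophage markers (7 genes) summed to 1675 to 6460, 5030 to 5611, 400 to 2684 and 7.35 to 7.68 FPKM in the same order. Between groups, the fibroblast sum was highest in allografts, as were Cdkn2a and Cdkn2b. Within allografts, the fibroblast sum was 1261, 2372 and 942 FPKM, highest in allograft tumor 2, where Cdkn2a and Cdkn2b were lowest of the 3. Lung epithelium markers (6 genes) summed to 11970 to 19090 FPKM in metastases, against 3.68 to 10.8 in allografts and 7.31 to 13.4 in primary tumors, and 2.99 at most in proximal tubule cells. T cell markers were at 13.2 to 22.2, 32.2 to 44.8, 41.3 to 62.4 and 0.648 to 2.52 FPKM. How far these cells carry the 10 transcripts was not tested.

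**Figure D5:**
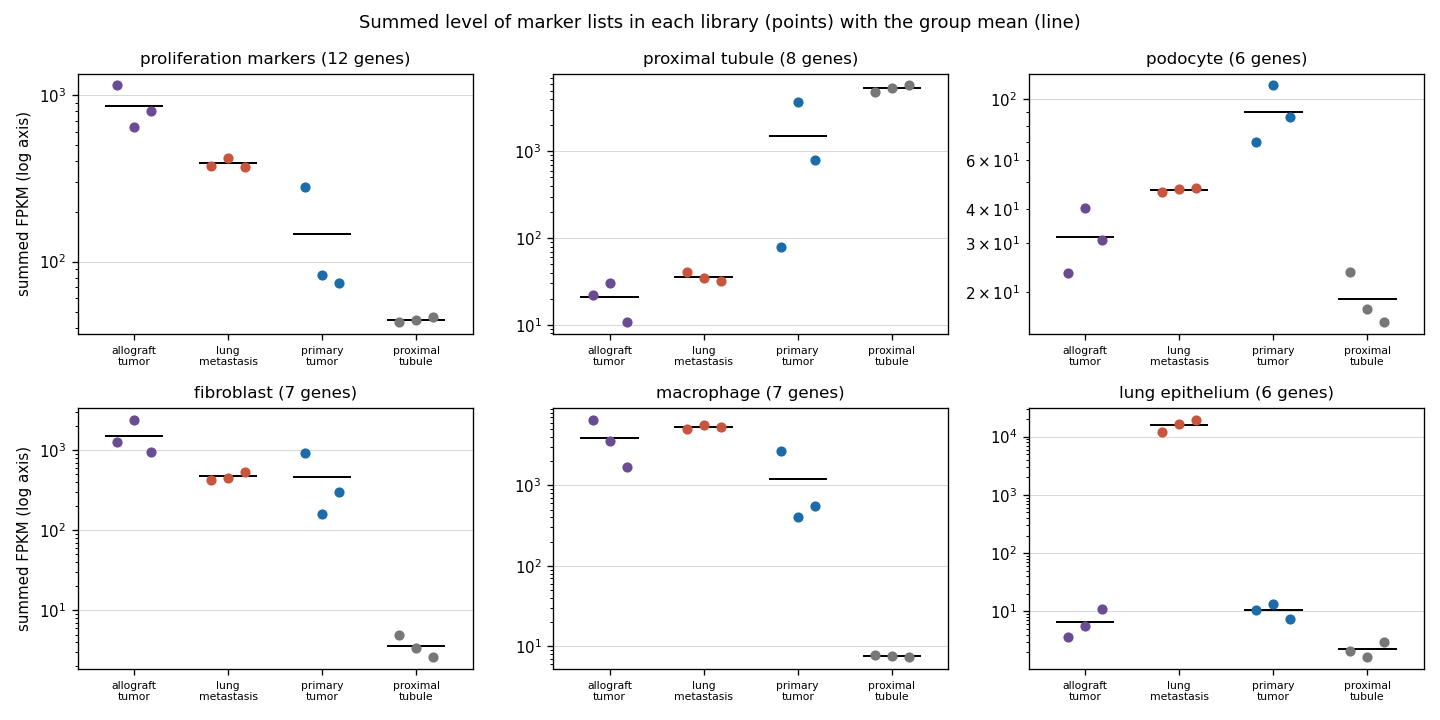
Summed FPKM of 6 marker lists in each library (points) with the group mean (line), by group, on log axes that differ in range. Proximal tubule markers are at 10.7 to 41.0 FPKM in allografts and metastases, primary tumors 2 and 3 stand at 3695 and 791 FPKM, and lung epithelium markers stand out in metastases.

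The genes whose profile over the 12 libraries was most like that of each member were found by the root-mean-square difference of centred log2(FPKM + 1), among 10452 protein-coding genes with a mean of at least 5 FPKM. Ces1g (0.556) was among the closest to Cdkn2a, and Ltbp1 (0.335) and Aspn (0.341) were the closest to Cdkn2b. Closest to Cdkn1c were Fbln5 (0.462) and Gucy1a1 (0.558), and to Phlda3 Thbs3 (0.215) and Tceal9 (0.233). For the remaining members the closest were Prpf3 (0.0888) for Cdkn1b, Ess2 (0.126) for Mdm2, E2f4 (0.139) for Trp53, Foxn2 (0.162) for Cdkn2d, Psma3 (0.164) for Cdkn2c and Zyx (0.228) for Cdkn1a. The libraries of a group share their group difference, so such likeness is a description of these 12 libraries only.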

How the data were processed

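RNA from 12 libraries was analysed. The labels describe standard Illumina library protocols, and the submitters' processing notes name bcl2fastq (2.17.1.14), Salmon, and the builds GRCm38 and mm10. The authors deposited FPKM values for 24432 genes, of which 24189 matched a GENCODE M21 symbol. The sources used here do not give gene lengths, strandedness or filters. Columns summed to 706093 to 2.53e+06 FPKM. Depth was not stated and was estimated from the commonest step between low values, so it is approximate.

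Genes with at least 1 FPKM in at least 3 libraries were kept (16313), and 1 was added before log2. One model over all 4 groups, without covariates, was fitted in limma (3.58.1, R 4.3.3) with a trend of variance on mean level. P-values were Benjamini-Hochberg adjusted over all genes of each of 6 comparisons. The script was tested on simulated data. The 5 other scalings were TPM rescaling, median-of-ratios factors over all genes or over protein-coding genes, quantile normalization, and rescaling without the 50 most abundant genes. Further alternatives were other pseudocounts and filters, array weights, fits of 2 groups, a replicate block, a minimum change, and fits without 1 library or without primary tumors 2 and 3.

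The members, gene lists and alternatives were chosen with earlier results of these data known. All members were named, with up to 2 of the most like genes each, and from each list fixed anchors and the called genes of largest change, not all of which are printed. A few genes that the rule names are not reported here.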

Additional observations from a re-analysis of the deposited data

How the results depend on the processing

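Of 1500 values of the 10 genes under other settings, 1326 kept their direction and side of the threshold. With the sign kept, 112 lost a call and 14 gained one, and 48 turned sign, with or without a change of call. The causes were not tested. Many of the 1500 could not change direction, so the tally overstates how stable the values were. These came from fits of 2 groups, the replicate block, and fits without a library of a group outside the comparison. Only the larger changes in counts of member genes called are given here, and smaller ones are left out. A count can also stay the same while its genes change. Primary tumors against proximal tubule cells gave 3, in place of 5, with a pseudocount of 5 and with protein-coding median-of-ratios scaling. They gave 1 with quantile normalization and 3 with the 50 most abundant genes left out. Metastases against proximal tubule cells gave 5 with TPM, both median-of-ratios scalings and quantile normalization, and 6 with abundant genes left out, in place of 10. Allografts against proximal tubule cells gave 3 with TPM and 6 with quantile normalization, in place of 10. In the other scalings too, the allograft calls of Cdkn1a, Cdkn1b and Trp53 were lost. Metastases against primary tumors gave 3 with TPM, without the abundant genes and with a minimum change of 1, 1 in the fit of 2 groups and 0 without primary tumors 2 and 3, in place of 5. Allografts against primary tumors gave 5 with TPM, the fit of 2 groups and the minimum change, in place of 8, and allografts against metastases gave 5 with array weights, in place of 3.

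Of the counts of all genes called, again only the larger changes are given. For primary tumors against proximal tubule cells they were 5738 (quantile) and 5083 (minimum change), in place of 8661. For metastases against primary tumors (3414) they were 9743 with array weights, 1175 in the fit of 2 groups and 1155 without primary tumors 2 and 3. For allografts against primary tumors (6784) they were 2893 in the fit of 2 groups, 3271 without primary tumors 2 and 3 and 4231 with the minimum change. For allografts against metastases (3872) they were 6511 with array weights and 2270 with the minimum change. Leaving out 1 library at a time gave 2 to 6 member genes and 1554 to 6268 genes in all for metastases against primary tumors, and 3 to 4 and 2278 to 4876 for allografts against metastases.

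Signs turned mostly against proximal tubule cells. With TPM rescaling the values in primary tumors were -0.90 for Cdkn1a, -0.49 for Cdkn1b, -0.37 for Cdkn2c, -0.059 for Cdkn2d, -0.88 for Trp53 (adjusted p = 0.0322) and -0.78 for Mdm2 (adjusted p = 0.00953). In metastases they were -0.19 for Cdkn1b, -0.40 for Trp53 and -0.22 for Mdm2, and in allografts -0.34 for Cdkn1a, -0.64 for Cdkn1b, -0.42 for Trp53 and -0.22 for Mdm2. TPM also gave -0.15 for Cdkn1b in allografts against primary tumors, and -0.021 for Trp53 and -0.0021 for Mdm2 against metastases. In primary tumors against proximal tubule cells, median-of-ratios scaling gave Cdkn1a -0.51, Cdkn1b -0.051, Trp53 -0.45 and Mdm2 -0.35 (adjusted p = 0.0409), and over protein-coding genes -0.49, -0.021, -0.42 and -0.32. Quantile normalization gave Cdkn1a -0.63, Cdkn2c -0.047, Cdkn2d -0.15, Trp53 -0.34 and Mdm2 -0.23, and leaving out abundant genes gave Cdkn1a -0.27, Trp53 -0.20 and Mdm2 -0.099. Array weights gave Cdkn1a -0.061 and Cdkn2c -0.046. For metastases against primary tumors, Cdkn2a was -0.0011 with quantile normalization, -0.024 without abundant genes and -0.18 with array weights, and Trp53 was -0.012 without primary tumors 2 and 3. For allografts against primary tumors, Cdkn1b was -0.17 without abundant genes and -0.12 with array weights.

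Leaving out 1 library at a time, values spanned 0 for Cdkn1a (-0.31 to 0.36) and Trp53 (-0.073 to 0.29) in primary tumors against proximal tubule cells. They did so for Cdkn2a (-0.090 to 0.088) in metastases against primary tumors, and for Cdkn1b in allografts against metastases (-0.50 to 0.11) and against primary tumors (-0.24 to 0.37).

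The share of higher calls against proximal tubule cells was 75.6% in allografts, 78.9% in metastases and 90.8% in primary tumors as deposited. It was 33.6%, 43.7% and 35.9% with TPM, 57%, 58.4% and 59.4% with median-of-ratios scaling, 55.1%, 56.6% and 56.9% over protein-coding genes, 50%, 46.5% and 39.4% with quantile normalization, and 54.6%, 63.8% and 75% without abundant genes. Between tumors it was 31.9% with TPM and 29.3% without abundant genes for allografts over primary tumors (49.3%), 17.5%, 23.9% and, with quantile normalization, 54.8% for allografts over metastases (44%), and 43% without abundant genes for metastases over primary tumors (54.2%).

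Deviations of same-numbered libraries from their group means were little correlated (-0.0433 to 0.0977). Differently numbered libraries were not compared in this way, so these values do not settle whether the numbers pair the samples. With the replicate block, allografts, metastases and primary tumors against proximal tubule cells gave 10, 9 and 5 member calls, metastases against primary tumors 5, and allografts against primary tumors and against metastases 8 and 3. The call lost was Trp53 in metastases (adjusted p = 0.0547). Depth limits Cdkn2a below about 1 FPKM, and with 3 libraries a group a p above the threshold does not show that levels were alike.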

Other observations

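Markers of 2 further cell types separated the allografts from the other tumors. B and plasma cell markers (6 genes) summed to 9.78 to 59.6 FPKM in allograft tumors, 130.0 to 233.8 in metastases, 121 to 443 in primary tumors and 0.346 to 0.817 in proximal tubule cells. All 6 were lower in allografts than in metastases and than in primary tumors, where 13.3% and 21.1% of all genes were called lower. The hosts of the allografts lack B and T cells, and whether this bears on these sums was not tested. Against proximal tubule cells, 2 of the 6 B and plasma cell markers and 4 of 6 T cell markers were called higher in allografts, beside 52.2% of all genes. Endothelial markers (6 genes) summed to 52.3 to 115 FPKM in allograft tumors, 225 to 398 in metastases, 183 to 252 in primary tumors and 49.2 to 70.3 in proximal tubule cells. Of these, 6 were lower in allografts than in metastases and 4 than in primary tumors, beside the same 13.3% and 21.1% of all genes. The part of either cell type in the levels of the 10 genes was not tested.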
